A study of Mus musculus with 39 samples.

Results

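Hox genes are the genes of 4 chromosomal clusters, HoxA to HoxD, whose symbols carry the cluster letter and a paralogue number. Every gene with such a symbol was taken, which gave 39 Hox genes of the 24537 genes in the table of kidney, liver and lung and the same 39 of the 52508 genes in the table of skin. HoxA lies on chromosome 6 from 52155367 to 52260880 on the minus strand with 11 genes. HoxB lies on chromosome 11 from 96194361 to 96368253 with 10, HoxC on chromosome 15 from 102921131 to 103036852 with 9 and HoxD on chromosome 2 from 74668310 to 74765142 with 9, all on the plus strand (mm10).

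Hox genes encode transcription factors that bind DNA through a homeodomain and set positional identity along the body axis of the embryo. Genes with low paralogue numbers sit at the 3′ end of their cluster and are used from the head end of the trunk onward, whereas genes with high numbers sit at the 5′ end and are used only further back, so that the set of active genes marks an axial level. Much of this embryonic code is kept in adult fibroblasts, smooth muscle and other mesodermal cells, which makes it a label of the position from which a tissue came.

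RNA was sequenced from whole kidney, liver, lung and skin of male C57BL/6 mice lacking perforin (Prf1-/-), the pore-forming protein that cytotoxic lymphocytes use to kill target cells, so every group compared here carries the deletion. Young mice were 3 months old and had no treatment stated, with 4 libraries per tissue and 3 in skin. Old mice were 20 months old and had received either vehicle or ABT-737, an inhibitor of anti-apoptotic BCL-2 family proteins, at 25 mg/kg in monthly rounds of 2 days that began at 18 months, with 3 libraries per tissue and treatment. The 39 libraries came from a bulk form of MARS-seq, which reads the 3′ ends of transcripts, and the deposited counts were compared for the same gene between libraries, never between genes.

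Total counts ranged from 1431814 to 3513311 per library in kidney, 1046508 to 2600092 in lung, 1493411 to 3842808 in skin and only 223957 to 891116 in liver. A count of 3, used here as the floor, stood for 0.854 to 2.095 CPM (counts scaled to a common library total) in kidney, 1.154 to 2.867 in lung, 0.781 to 2.009 in skin and 3.367 to 13.395 in liver. The summed markers of each labelled tissue were high in that tissue, with medians of 11800 CPM for 8 kidney tubule genes in kidney, 74800 CPM for 7 hepatocyte genes in liver, 49850 CPM for 7 lung epithelium genes in lung and 16600 CPM for 7 keratinocyte genes in skin. A few libraries stood apart. Vehicle replicate 3 and ABT-737 replicates 4 and 5 in skin held 6660, 16600 and 14800 CPM of hair follicle markers against 28.2 to 539 CPM in the other skin libraries, and vehicle replicate 5 in lung held 6010 CPM of leukocyte markers against 996 to 2710 CPM in the other lung libraries. ABT-737 replicate 4 in lung held 4290 CPM of adipocyte and 822 CPM of hepatocyte markers, against 61.7 to 171 and 3.37 to 258 CPM in the others.

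The homeobox, the stretch of 180 coding bases that specifies the homeodomain, was located in the GENCODE M21 transcripts (GRCm38) of all 39 members, and in all 39 it lay within 1 exon. Those of 3 members are shown because they lie on either side of the borders described below. Hoxa5 was detected in lung and kidney, Hoxa10 in kidney but not in lung, and Hoxc13 in skin alone. Capitals mark the 18 bases of the conserved stretch of the third, DNA-recognition helix by which the homeobox was found.
Hoxa5, chr6:52202632-52202811, minus strand, exon 2: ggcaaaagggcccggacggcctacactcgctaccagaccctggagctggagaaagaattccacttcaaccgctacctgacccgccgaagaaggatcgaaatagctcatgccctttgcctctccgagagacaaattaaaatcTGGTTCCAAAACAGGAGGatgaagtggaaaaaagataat
Hoxa10, chr6:52232554-52232733, minus strand, exon 2: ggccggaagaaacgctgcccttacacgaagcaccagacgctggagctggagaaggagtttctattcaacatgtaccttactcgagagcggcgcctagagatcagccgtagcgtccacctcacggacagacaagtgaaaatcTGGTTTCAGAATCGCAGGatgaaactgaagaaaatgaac
Hoxc13, chr15:102927210-102927389, plus strand, exon 2: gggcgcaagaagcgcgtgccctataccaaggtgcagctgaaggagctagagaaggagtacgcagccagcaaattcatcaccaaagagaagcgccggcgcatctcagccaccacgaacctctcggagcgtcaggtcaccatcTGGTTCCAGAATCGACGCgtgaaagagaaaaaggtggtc
Hoxa5 and Hoxa10, on opposite sides of the border seen in lung, shared 61.7% of these bases. Hoxc13 shared 48.3% with Hoxa5 and 61.1% with Hoxa10.

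The first question was which Hox genes each adult tissue still expressed. A gene was called detected in a tissue when more than 3 counts were present in at least 5 of its libraries (10 in kidney, liver and lung, 9 in skin). By this rule 28 of the 39 Hox genes were detected in kidney, 26 in skin, 11 in lung and 0 in liver. All 11 detected in lung were also detected in kidney and skin, and 14 more were shared by kidney and skin. Hoxa11, Hoxc10 and Hoxd11 were detected in kidney alone and Hoxc13 in skin alone. The remaining 10 were detected in none of the 4 tissues, among them Hoxb13, a gene of the prostate, and Hoxa13 and Hoxd13, which act in digits and hindgut.

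**Figure D1:**
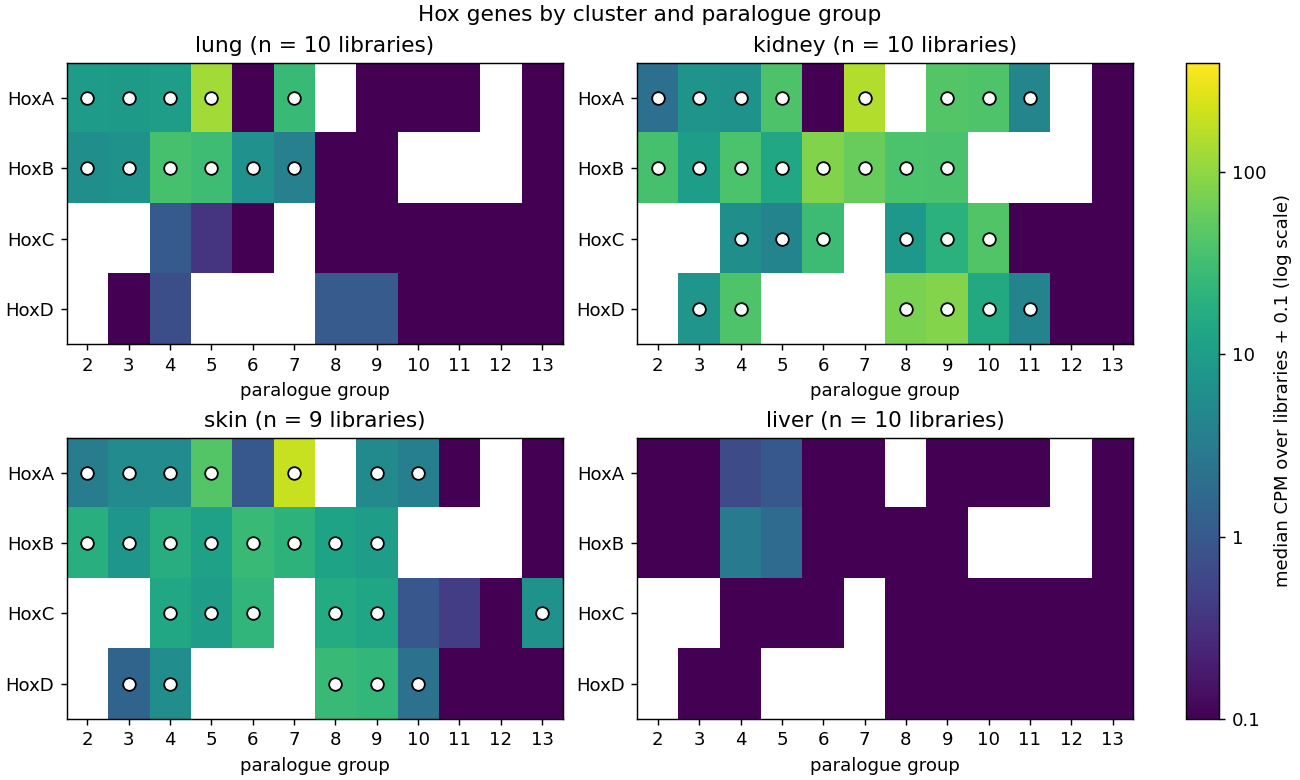
Median CPM of each Hox gene (colour, log scale after adding 0.1) by cluster (vertical axis) and paralogue group from 2 to 13 (horizontal axis) in lung, kidney, skin and liver. White circles mark detected genes and blank squares have no gene. Circles stop at group 7 in lung, reach group 11 in kidney and group 13 in skin, and are absent in liver.

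In lung the detected genes stopped at paralogue group 7. They were Hoxa2, Hoxa3, Hoxa4, Hoxa5 and Hoxa7 of HoxA and Hoxb2 to Hoxb7 of HoxB, with no gene of HoxC or HoxD. In kidney the highest detected groups were 11 in HoxA, 9 in HoxB, 10 in HoxC and 11 in HoxD. In skin they were 10 in HoxA, 9 in HoxB, 13 in HoxC and 10 in HoxD, of which Hoxb9 had 14 to 34 counts per library, Hoxa10 had 2 to 12 and Hoxd10 had 0 to 16. The 16 genes of groups 9 to 13 held 28.3% to 31.9% of all Hox counts of a kidney library and 10.4% to 23.5% in skin, against 0% to 4.39% in lung (median 0.545%). In skin Hoxc13 alone made 289 of 1572 Hox counts in ABT-737 replicate 4 and 318 of 1921 in replicate 5. These were the skin libraries highest in hair follicle markers. Summed over the 39 genes, Hox counts came to 851 to 1076 CPM in kidney (median 954), 365 to 697 CPM in skin (median 606), 114 to 380 CPM in lung (median 275) and 0 to 22.4 CPM in liver (median 11.2). The skin values come from another table with other gene models and are placed beside the rest without a comparison of level.

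In the 10 liver libraries, the 39 Hox genes together had between 0 and 19 counts per library, with a median of 6. No count at all was present for 25 of them, including all 9 of HoxC. Hoxb4, which is known for its action on blood stem cells, had the most, with 17 counts over all 10 libraries, and Hoxb5 had 11, Hoxa5 had 9 and Hoxa4 had 7. Shallow sequencing limited what could be seen there, but not for the genes that are abundant elsewhere. At the level of kidney, the 5610878 liver counts would have held 884.2 counts of Hoxa7, 470 of Hoxb6 and 469.1 of Hoxd9, whereas 2, 5 and 0 were present. For Hoxa11 and Hoxd11 the kidney level corresponded to 25.9 and 29.5 counts over all 10 liver libraries, and 0 of either were present. The kidney level was thus on average under the floor of 3 counts in each liver library. For these genes the rule of detection says little in liver, although the pooled counts were below the kidney level.

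Requiring more than 3 counts in every library left 26 genes in kidney, 21 in skin and 9 in lung, and accepting a single library above 3 gave 29, 29 and 17. The 6 further lung genes under the latter, among them Hoxc4, Hoxd8 and Hoxd9, had at most 7 counts in any lung library.

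Kidney and lung were then compared in a single model over the 30 libraries of kidney, liver and lung, which tested 27 Hox genes, all those detected in kidney except Hoxc5 (4 to 15 counts per kidney library and 0 to 4 per lung library). Levels are CPM after TMM scaling, differences are on the log2 scale with their standard errors (SE), and a gene was called at an adjusted p-value (Benjamini-Hochberg, edgeR's quasi-likelihood test over all genes) under 0.05. P-values measure the spread between these libraries, which the submitters describe as biological replicates. Of the 27 genes tested, 25 were called (background 73.5% of all genes tested), 22 of them higher in kidney (background 34.3%). Many of the 27 entered the test only through their counts in kidney and so had to differ, and their number is a description. In whole tissue, fewer cells of a type and less RNA per cell cannot be told apart.

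At the HoxA border, Hoxa5, a regulator of lung and airway development, was higher in lung. Its level ran from 22.6 to 169 CPM in the 10 lung libraries (median 109) and from 29 to 43.6 CPM in the 10 kidney libraries (median 35.6), and kidney minus lung was -1.30 (SE 0.195, adjusted p = 3.47e-07, edgeR). The ranges overlapped because the lowest lung library, vehicle replicate 5, fell below kidney. Hoxa7, the next detected gene of the cluster, went the other way, with 11.8 to 29.4 CPM in lung (median 19.9) and 95.7 to 181 CPM in kidney (median 142), without overlap (difference 2.87, SE 0.152, adjusted p = 1.74e-17).

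Beyond Hoxa7 the lung signal ended. Hoxa9, best known from blood progenitors and leukaemia, had 40 to 206 counts in each kidney library (23.6 to 51.8 CPM) and at most 1 count in any lung library (0 to 0.533 CPM). Hoxa10, which acts in the uterus and in the kidney stroma of the embryo, had 17.1 to 45.5 CPM in kidney and at most 1 count in a lung library. Hoxa11, which together with its group 11 paralogues is needed for the kidney to form, had no count in lung and 2.71 to 5.78 CPM in kidney, at least 2.93-fold higher when lung is set to the floor of 3 counts per library.

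HoxB showed a similar order. Hoxb5, which takes part in airway branching, was higher in lung, with 5.43 to 38.2 CPM (median 25.8) against 7.68 to 16.6 CPM in kidney (median 12.4) and a difference of -0.78 (SE 0.189, adjusted p = 0.000433). Within groups the difference was -1.43 in the young, -1.09 in the ABT-737 and 0.19 in the vehicle libraries (adjusted p = 4.36e-05, 0.00719 and 0.674), so the direction turned in the last. Hoxb6 and Hoxb7, the latter a gene of the ureteric bud and collecting duct, were higher in kidney, with differences of 3.93 (SE 0.171, adjusted p = 1.97e-20) and 4.01 (SE 0.185, adjusted p = 5.49e-18). Hoxb7 lay between 1.67 and 5.04 CPM in lung and between 40.8 and 62.1 CPM in kidney. Hoxb8 had at most 2 counts and Hoxb9 no count in any lung library, against 23.8 to 44.9 and 23.7 to 39.5 CPM in kidney. Against the floor, Hoxb9 was at least 23.8-fold higher in kidney.

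**Figure D2:**
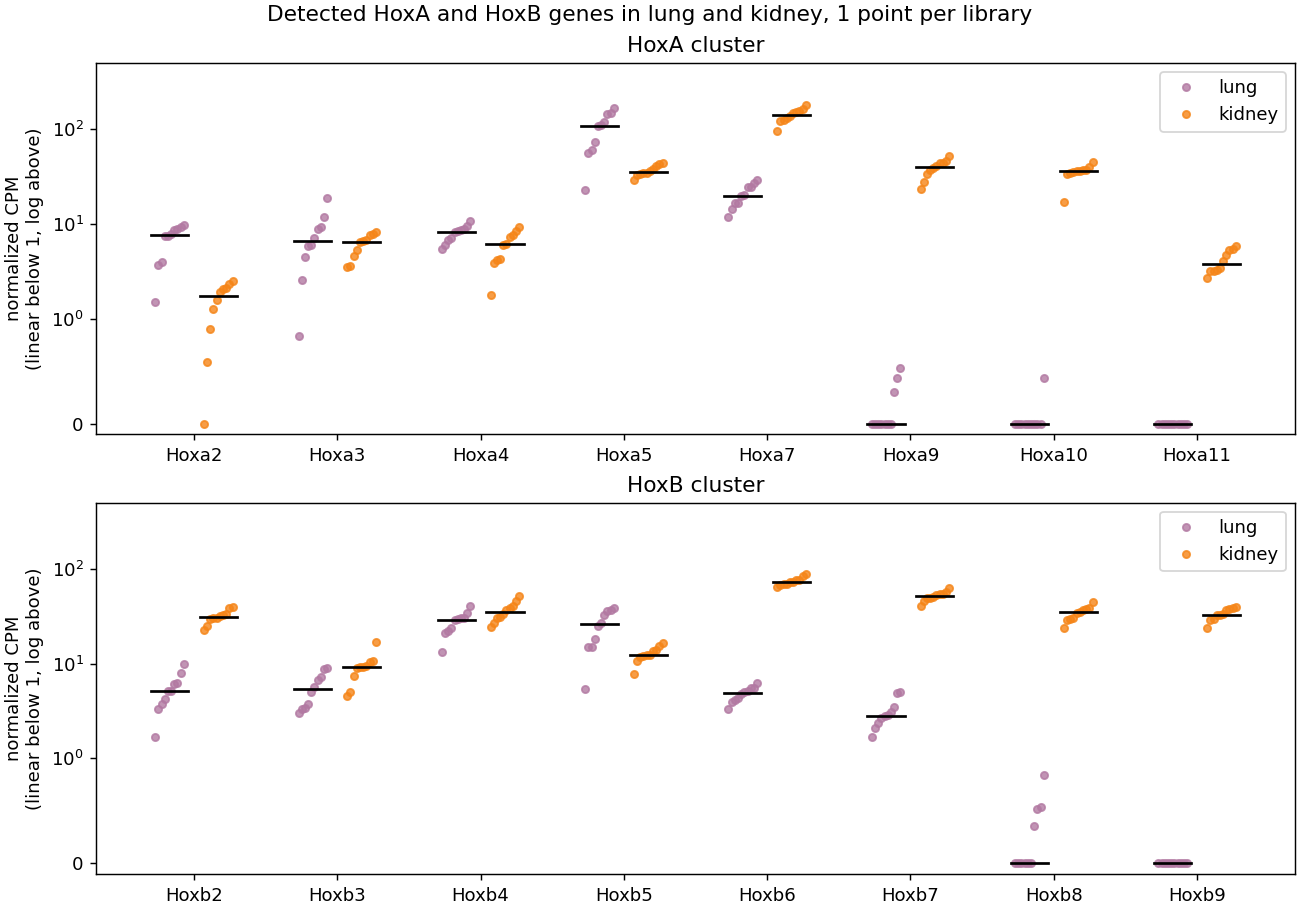
Normalized CPM (vertical axis, linear below 1 and logarithmic above) of the detected HoxA and HoxB genes in the 10 lung and 10 kidney libraries, ordered by value within a tissue, with a black line at the median. Hoxa5 and Hoxb5 sit higher in lung, and from Hoxa9 and Hoxb8 on the lung points are at or near 0 while those of kidney stay above 2.

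At the 3′ end of the clusters the differences went both ways. Hoxa2, a hindbrain and branchial arch gene, was higher in lung (1.51 to 9.65 CPM against 0 to 2.51 CPM in kidney, difference -2.06, SE 0.343, adjusted p = 3.99e-06). Hoxa3 and Hoxa4 were not called, with differences of -0.17 (SE 0.282) and -0.41 (SE 0.237). Hoxb2, also a hindbrain gene, was higher in kidney, with 22.5 to 39.8 CPM against 1.68 to 9.99 CPM in lung (difference 2.6, SE 0.208). Hoxb3, at 4.49 to 16.7 CPM in kidney and 3.02 to 8.88 CPM in lung, and Hoxb4, at 24.5 to 51.7 and 13.3 to 40.2 CPM, were called higher in kidney by 0.72 (SE 0.244) and 0.46 (SE 0.157), but with DESeq2 the adjusted p was 0.0848 and 0.287, and each was called in only 3 of 7 alternatives. The transcript span of Hoxa3 covers those of Hoxa4, Hoxa5 and Hoxa6, and that of Hoxd3 covers Hoxd4, so counts of these genes may be shared.

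The HoxC and HoxD genes had few or no counts in lung. Hoxc10, detected in kidney alone, had 27.2 to 44.9 CPM there and no count in lung or liver, at least 27.4-fold higher than lung. Hoxc8, Hoxd3 and Hoxd11, also without a count in lung, were at least 5.5-fold, 4.65-fold and 3.09-fold higher in kidney, and Hoxc6, Hoxc9, Hoxd4 and Hoxd10 had at most 1, 1, 3 and 1 counts in a lung library. The lowest kidney libraries had 17.5 CPM of Hoxc6, 13.9 of Hoxc9, 3.55 of Hoxc8, 28.1 of Hoxd4, 9.72 of Hoxd10, 3.26 of Hoxd3 and 1.41 of Hoxd11, each above every lung library. Hoxd8 and Hoxd9, with up to 4 and 7 counts in a lung library, had kidney ranges of 34.9 to 95.3 and 56.2 to 83.9 CPM, above all lung values. Hoxc4 had 3.26 to 9.94 CPM in kidney and 0 to 4.17 CPM in lung, and the ranges overlapped, as did those of Hoxc5.

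Against liver, all 27 Hox genes tested were called higher in kidney (background 57.5% called, 41.1% higher), and 13 were called higher in lung (background 74% called, 49.3% higher). In both cases the genes had been let into the test by their counts in the higher tissue or in kidney. Hoxa7 had 95.7 to 181 CPM in kidney and 0 to 5.53 CPM in liver, and Hoxa5 had 22.6 to 169 CPM in lung and 0 to 5.23 CPM in liver. The 13 called in lung were the 11 detected there plus Hoxc4 and Hoxd9, and of these Hoxc4 (3.63, SE 1.6, adjusted p = 0.0439) and Hoxd9 (3.67, SE 1.33, adjusted p = 0.0255) rested on at most 5 and 7 counts in a library, with an adjusted p of 0.389 and 0.308 by DESeq2. Hoxc4 was called in 2 and Hoxd9 in 3 of 7 alternatives, and with 1 library left out Hoxc4 was called in 16 of 30 fits (adjusted p up to 0.0684) and Hoxd9 in 30. Hoxa2 between kidney and liver was called in 1 of 7 alternatives (0.203 by DESeq2) and in 24 of 30 fits with 1 library left out (up to 0.074).

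Genes that work with or around Hox proteins were counted in the same contrasts, in which most genes of any kind were called. Of 9 TALE cofactors (Pbx, Meis and Pknox), which bind DNA together with Hox proteins, 8 were tested, and 6 were lower in kidney than in lung with 0 higher (73.5% of all genes were called). Meis1, Meis3 and Pknox2 differed by -2.0 (SE 0.21), -2.83 (SE 0.253) and -3.79 (SE 0.259). In 7 of the 8 the level was higher in lung than in liver (49.3% of all genes), and in 4 it was higher in kidney than in liver (41.1% of all genes). Of 14 neighbours and noncoding transcripts of the clusters, 5 were tested, of which 4 were higher in kidney than in lung and 1 lower. The antisense transcripts Hoxb5os and Hoxd3os1 were higher in kidney than in lung by 3.83 (SE 0.236) and 5.85 (SE 0.514), and neither had a count in any liver library. Whether strand was used in counting is not given, so reads of Hoxb5 and Hoxb5os, or Hoxd3 and Hoxd3os1, cannot be told apart. Hotairm1, a noncoding RNA at the 3′ end of HoxA, was higher in kidney than in lung by 1.54 (SE 0.188).

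None of the 6 Cdx and ParaHox genes, which act before or beside Hox genes in the embryo, passed the filter in any tissue. Of 27 chromatin regulators of the Polycomb and Trithorax groups and their partners, 26 were tested. Relative to lung, 5 were higher and 11 lower in kidney, a share under that of all genes, with a median difference of -0.32 (-0.08 over all genes). Patterning factors of other families were listed by the tissue they belong to, as a check of the tissue labels, and that choice favoured the direction. Of the 11 in the kidney list, 11 were higher in kidney than in liver (background 41.1%) and 9 than in lung (background 34.3%), with 1 lower (Osr1). All 9 tested of the 10 in the lung list were higher in lung than in kidney, and 8 of 9 in the liver list were higher in liver than in kidney.

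The second question was whether the code changed with age or treatment. Vehicle-treated old mice were compared with young mice, and ABT-737-treated with vehicle-treated and with young mice, in each tissue on its own. No injection is stated for the young mice, so age and injection cannot be told apart in the comparisons with them. No Hox gene passed the filter in liver, where no comparison was possible.

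In kidney 26 Hox genes were tested between vehicle and young, and 3 were called (background 13.3%), all lower in the old mice (background 5.5%). Hoxd8 had 88.3, 100, 106 and 101 CPM in the young mice and 38.9, 53.4 and 73.2 CPM in the vehicle-treated mice, a difference of -0.85 (SE 0.197, adjusted p = 0.00938). No vehicle library reached the lowest young library. Hoxd11, one of the group 11 genes that direct kidney formation, had 6.43, 8.27, 7.9 and 6.92 CPM in young and 1.57, 3.42 and 3.76 CPM in vehicle (4, 5 and 8 counts), again without overlap (-1.40, SE 0.357, adjusted p = 0.0165). Hoxa9 had 48.9, 56.8, 49.2 and 43.8 CPM in young and 37.3, 27.4 and 31 CPM in vehicle (-0.63, SE 0.167, adjusted p = 0.0204). Leaving out 1 library ended the call of Hoxd11 without vehicle replicate 3 (adjusted p = 0.0782). The call of Hoxa9 ended without vehicle replicate 4 or 5 or young replicate 2 (0.0898, 0.0853 and 0.067). Hoxd8 was called in all 10 such fits, but with the replicate number as a block its adjusted p was 0.0604 (edgeR). Old mice have no replicate 1 or 2, so that block sets only young replicates 3 and 4 against them.

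The other 23 kidney genes were not called, and the direction of change was mixed. Over the 26, 14 values were above and 12 below 0, with a median of 0.02 (0.01 over all genes). Hoxb8 and Hoxb9 went against the called genes, with differences of 0.49 (adjusted p = 0.0534) and 0.41 (adjusted p = 0.105) and no overlap between the groups. Hoxb7 lay at 56.2 to 69.5 CPM in young and 47.2 to 62.9 CPM in vehicle (-0.08, SE 0.151), while the summed level of 7 collecting duct markers was 988 to 1060 CPM in young and 441 to 819 CPM in vehicle. All 7 were detected in kidney. Leukocyte markers summed to 72.5 to 93.2 CPM in young and 310 to 524 CPM in vehicle, with 6 of 7 detected. Their part in the Hox values was not tested.

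ABT-737 against vehicle gave 0 calls among the 26 in kidney (background 1.35%) by edgeR, and 0 calls by DESeq2. Over all 11123 genes tested, 1647 had an unadjusted p under 0.05 by edgeR, and 1 of the 26 did. That gene was Hoxa9, at 52.4, 41.1 and 45.7 CPM in the ABT-737-treated mice, all above the 3 vehicle values (0.52, SE 0.181, adjusted p = 0.178). Hoxd8 and Hoxd11 stayed near the vehicle values, at 50.5 to 76.5 CPM and 2.47 to 4.62 CPM. ABT-737 against young also gave 0 calls (background 2.12%), with 3 of the 26 at an unadjusted p under 0.05 by edgeR (1862 of all 11123 genes). Groups did not overlap there for 5 of the 26. Hoxa4, Hoxa5 and Hoxb8 were higher than in the young mice, and Hoxd8 and Hoxd11 were lower. The share of all genes without overlap was not counted, here or in the other comparisons, so these numbers are a description.

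**Figure D3:**
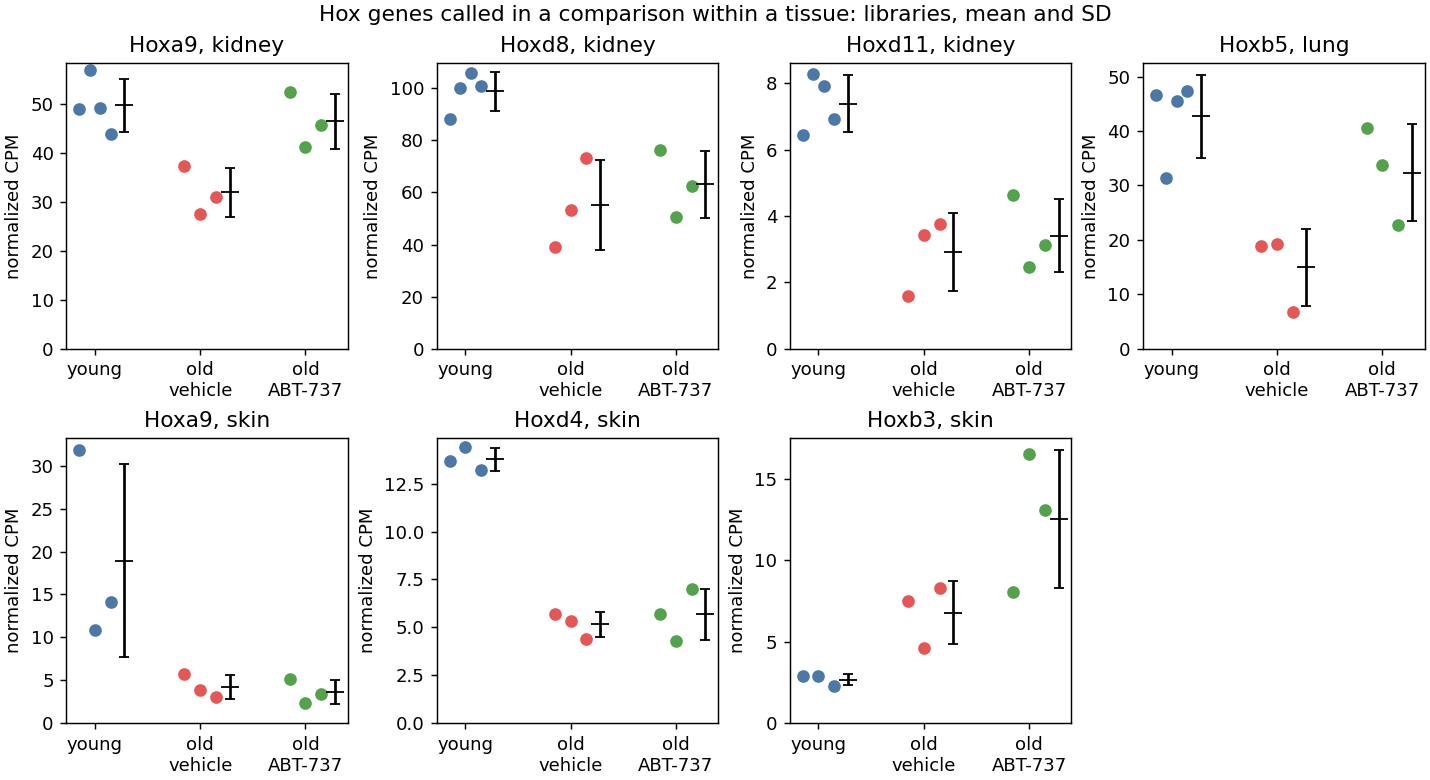
Normalized CPM (vertical axis, from 0) of each library for the Hox genes called within a tissue, in young, vehicle-treated old and ABT-737-treated old mice, with the mean and SD beside the points. Vehicle values lie apart from young values in all 7 panels, including that of Hoxb3 in skin, which was called only for ABT-737 against young.

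In lung 10 Hox genes were tested, and Hoxb5 was called between vehicle and young (background 12.9%), lower in the old mice (background 4.73%). Hoxb5 had 46.6, 31.3, 45.6 and 47.3 CPM in young and 18.8, 19.3 and 6.73 CPM in vehicle, without overlap, a difference of -1.54 (SE 0.365, adjusted p = 0.0152). Without vehicle replicate 5, the library high in leukocyte markers, its adjusted p was 0.0609. With the replicate number as a block, although young and vehicle libraries were not taken as pairs, the adjusted p of Hoxb5 was 0.0529 (edgeR). In that fit only young replicates 3 and 4 are set against old libraries.

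All 10 lung genes had a value below 0 in this comparison, with a median of -0.77 where the median of all genes was 0.04. An unadjusted p under 0.05 by edgeR was found for 6 of the 10, and for 3556 of all 11949 genes tested. Hoxa5 had 187, 138, 184 and 209 CPM in young and 70.4, 151 and 28.1 CPM in vehicle (-1.11, SE 0.428, adjusted p = 0.0999), and the vehicle replicate at 151 CPM overlapped the young range. Hoxa7 had 30.7 to 36.9 CPM in young and 14.6 to 24.8 CPM in vehicle (-0.72, SE 0.271, adjusted p = 0.0949). Hoxb4 differed by -0.64 (adjusted p = 0.157) and Hoxa2 by -1.06 (adjusted p = 0.155), both without overlap. Groups lay apart for 5 of the 10 genes, and the share over all genes was not counted.

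Other position genes of the lung passed the test. Of 9 lung patterning factors tested, 4 fell between young and vehicle and 0 rose, where 4.73% of all genes fell. These were Foxf1, a factor of lung vessels and mesenchyme, at -1.88 (SE 0.436, adjusted p = 0.0134), and the T-box genes Tbx2, Tbx4 and Tbx5 of the embryonic lung bud, at -1.68, -1.13 and -1.80 (adjusted p = 0.012, 0.0264 and 0.00561). Of the 8 cofactors 2 fell, among them Meis1 by 1.19 on the log2 scale (adjusted p = 0.0323). Of 10 genes tested of the retinoic acid pathway, which regulates Hox genes in the embryo, 2 fell, among them the receptor gene Rarg (-1.30, adjusted p = 0.0282), whereas Cyp26b1, the enzyme that degrades retinoic acid, rose by 2.0 (SE 0.382, adjusted p = 0.00565). Summed cell type markers in young and vehicle were 867 to 1220 and 570 to 747 CPM for 7 fibroblast genes, 1000 to 1190 and 296 to 895 CPM for 5 endothelial genes, 656 to 1060 and 304 to 750 CPM for 5 smooth muscle genes and 996 to 1170 and 2310 to 6010 CPM for 7 leukocyte genes. Their part in the lower Hox values was not tested.

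ABT-737 against vehicle called 0 of the 10 lung genes (background 0%) by edgeR and 0 by DESeq2. An unadjusted p under 0.05 by edgeR was found for 2 of the 10, and for 1919 of all 11949 genes tested. Hoxb5 had 40.6, 33.7 and 22.8 CPM in the ABT-737-treated mice, above all vehicle values (1.13, SE 0.388, adjusted p = 0.186), and 9 of the 10 genes had a value above 0 (median 0.37, 0.04 over all genes). In the ABT-737-treated mice the markers summed to 759 to 1130 CPM for fibroblasts, 917 to 1260 CPM for endothelium, 582 to 1020 CPM for smooth muscle and 1310 to 2710 CPM for leukocytes, against the vehicle values above, and their part was not tested. Without ABT-737 replicate 4 the count was 0 as well. Against young mice the treated mice also gave 0 calls (background 2.55%). Hoxa5 at 75.2 to 133 CPM and Hoxa7 at 18 to 25.1 CPM lay below all young values, whereas those of Hoxb5 overlapped the young range.

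Whether tissues differed in their change was tested in the model of 30 libraries. For vehicle against young, the change of Hoxb5 differed between kidney and lung by 1.62 (SE 0.45, adjusted p = 0.0251), 1 of 27 Hox genes called (background 8.04%). In kidney Hoxb5 was 14 ± 2.27 CPM in young (SD, n = 4) and 14.9 ± 0.564 CPM in vehicle (SD, n = 3). The call was lost without lung vehicle replicate 5 (adjusted p = 0.0976), kidney vehicle replicate 4 or 5 (0.0502 and 0.0593) or kidney young replicate 4 (0.0514). The 5 other contrasts called 0 Hox genes, which were vehicle against young between kidney and liver (background 0.786%) and between lung and liver (background 11.4%), and ABT-737 against vehicle between kidney and lung (background 0%), kidney and liver (background 0.0839%) and lung and liver (background 0.29%). At an unadjusted p under 0.05 by edgeR they gave 0, 1, 1, 1 and 0 Hox genes in that order. Over all 13107 genes tested these numbers were 1494, 3359, 1219, 964 and 1613.

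In skin 23 Hox genes were tested, all those detected except Hoxa10, Hoxd3 and Hoxd10. Between vehicle and young 2 were called (background 11.2%), both lower in the old mice (background 5.35%). Hoxd4, an axial patterning gene, had 13.7, 14.4 and 13.2 CPM in young and 5.71, 5.34 and 4.41 CPM in vehicle (-1.42, SE 0.287, adjusted p = 0.0203). Hoxa9 had 31.8, 10.9 and 14.1 CPM in young and 5.71, 3.91 and 3.03 CPM in vehicle (-2.16, SE 0.489, adjusted p = 0.0278), with young replicate 1 well above the other young libraries. Without the 3 libraries high in hair follicle markers, a fit chosen after the data were seen, the adjusted p-values were 0.0472 and 0.0437. The call of Hoxa9 was lost without vehicle replicate 4 or 5 or young replicate 1 or 2 (adjusted p = 0.0554, 0.0909, 0.102 and 0.0609), and that of Hoxd4 without vehicle replicate 5 or young replicate 1, 2 or 3 (0.068, 0.0802, 0.0783 and 0.0504).

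ABT-737-treated against young mice called 3 (background 5.17%), of which 2 were lower in the treated mice (background 3.17%) and 1 higher (background 2%). The lower ones were again Hoxa9 at 5.19, 2.35 and 3.35 CPM (-2.32, SE 0.487, adjusted p = 0.0333) and Hoxd4 at 5.71, 4.31 and 7.01 CPM (-1.26, SE 0.282, adjusted p = 0.04). This comparison shares the young libraries with that of vehicle and is not a second source for the same genes. Hoxb3 rose, from 2.89, 2.88 and 2.27 CPM in young (4 or 5 counts) to 8.04, 16.5 and 13.1 CPM with ABT-737 (2.21, SE 0.412, adjusted p = 0.0276). In the vehicle-treated mice Hoxb3 was at 7.47, 4.63 and 8.28 CPM (1.34 against young, adjusted p = 0.067). All 3 calls were absent without the libraries high in hair follicle markers (adjusted p = 0.398, 0.374 and 0.405), a fit in which the treated group has 1 library, assumed to vary like the others, and in which 0 of all genes were called. Leaving out ABT-737 replicate 4 or 5 or any young library also ended all 3 calls, with adjusted p-values of 0.0694 to 0.151 for Hoxa9, 0.0755 to 0.116 for Hoxb3 and 0.0933 to 0.13 for Hoxd4, and Hoxd4 was lost without vehicle replicate 3 as well (0.0545).

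By cluster, the signs of the skin values were as follows. For ABT-737 against young, 7 of the 8 HoxB genes had a value above 0 (median 0.53), against 2 of 6 in HoxA (median -0.21), 2 of 6 in HoxC (median -0.25) and 0 of 3 in HoxD (median -1.0), over a median of 0.10 for all genes. Hoxb6 and Hoxb7 differed by 0.82 (adjusted p = 0.0798) and 1.03 (adjusted p = 0.0515), and Hoxa7 by -0.92 (adjusted p = 0.0866), at 319, 336 and 292 CPM in young and 227, 137 and 135 CPM with ABT-737. For vehicle against young, 3 of 8 HoxB, 1 of 6 HoxA, 3 of 6 HoxC and 0 of 3 HoxD genes were above 0, with medians of -0.06, -0.89, -0.19 and -0.76. No test of the difference between clusters was made, since genes of a cluster are not replicates.

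**Figure D4:**
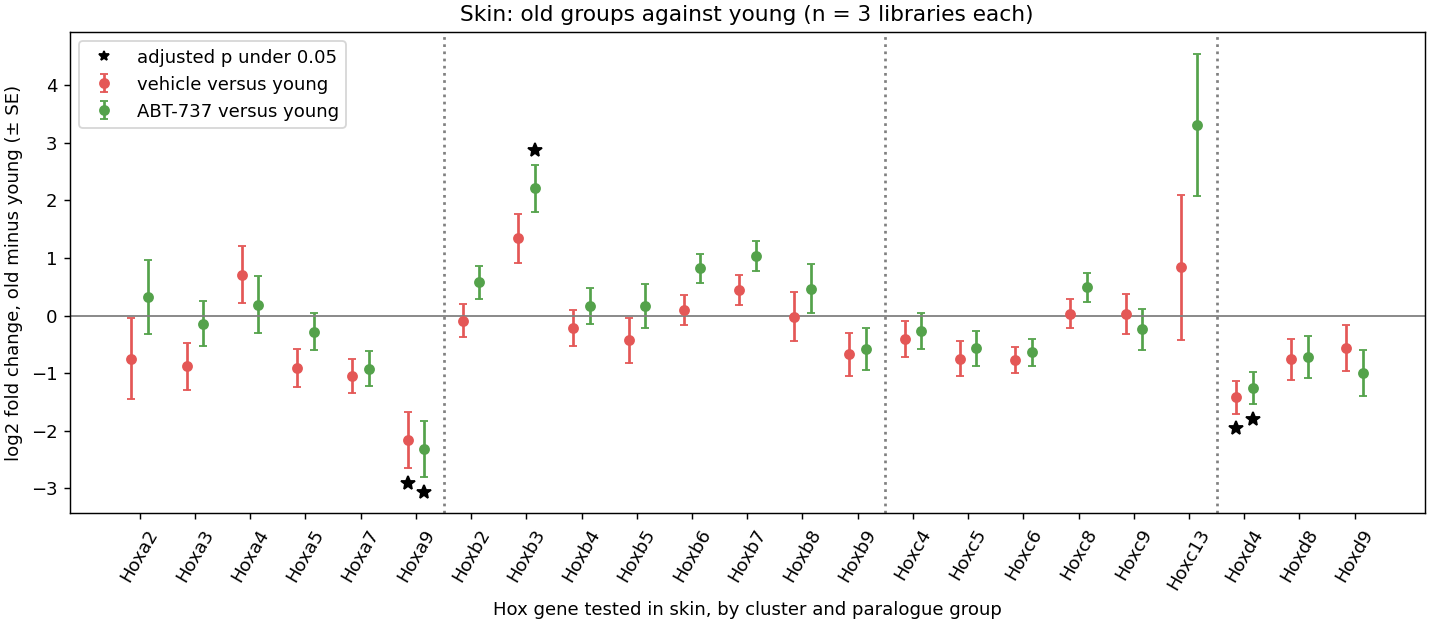
Log2 difference (vertical axis, with SE) between old and young skin for the 23 Hox genes tested, by cluster and paralogue group (dotted lines separate clusters), for vehicle (red) and ABT-737 (green), with stars at calls. HoxD values lie below 0, HoxB values spread from -0.67 to 2.21, and Hoxc13 has the widest error.

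Markers of skeletal muscle summed to 59000 to 85200 CPM in young and 9290 to 41600 CPM in vehicle, leukocyte markers to 128 to 382 and 817 to 1990 CPM, and fibroblast markers to 1450 to 7720 and 5350 to 11200 CPM. Their part in the Hox values was not tested. En1, a factor of ventral and sweat gland skin, rose by 2.09 (SE 0.522, adjusted p = 0.0356), as did Tbx18 of the dermal papilla, by 2.42 (SE 0.486, adjusted p = 0.0197), 2 of the 12 skin patterning factors tested where 11.2% of all genes were called. Crabp2, which binds retinoic acid in the cell, rose by 2.44 (SE 0.497, adjusted p = 0.0206), 1 of 2 retinoic acid genes called among 11 tested, again beside 11.2% of all genes.

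ABT-737 against vehicle called 0 Hox genes in skin (background 0%) by edgeR and 0 by DESeq2. An unadjusted p under 0.05 by edgeR was found for 4 of the 23, and for 1134 of all 14224 genes tested. Of the 23, 19 had a value above 0, with a median of 0.38 (0.04 over all genes), and all 8 of HoxB were among them. Hoxa2 of HoxA and Hoxb2 and Hoxb6 of HoxB, 3 of the 23, lay above all vehicle values in every treated library. The share of all genes that did so was not counted. The differences of Hoxb2 and Hoxb6 were 0.67 and 0.71 (adjusted p = 0.593 and 0.524, edgeR).

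Hoxc13, a regulator of hair keratin genes, was the single Hox gene of group 13 detected in any tissue, and it varied widely between skin libraries of the same group. It had 10, 14 and 14 counts in young mice, 81, 5 and 11 in vehicle-treated mice and 21, 289 and 318 in ABT-737-treated mice. In normalized terms these were 7.24, 8.06 and 6.37 CPM, then 35.6, 1.78 and 3.03 CPM, then 5.45, 113 and 96.9 CPM. The 3 highest libraries were the 3 with 6660 CPM or more of the 12 hair follicle markers in the table. Among the other 6 it was 3.03 CPM at 539 CPM of markers and 8.06 CPM at 28.8 CPM. Hoxc13 was not called in any comparison, at 3.31 (SE 1.23, adjusted p = 0.115) for ABT-737 and 0.84 (SE 1.26, adjusted p = 0.671) for vehicle against young. No count of Hoxc13 was present in kidney, lung or liver.

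**Figure D5:**
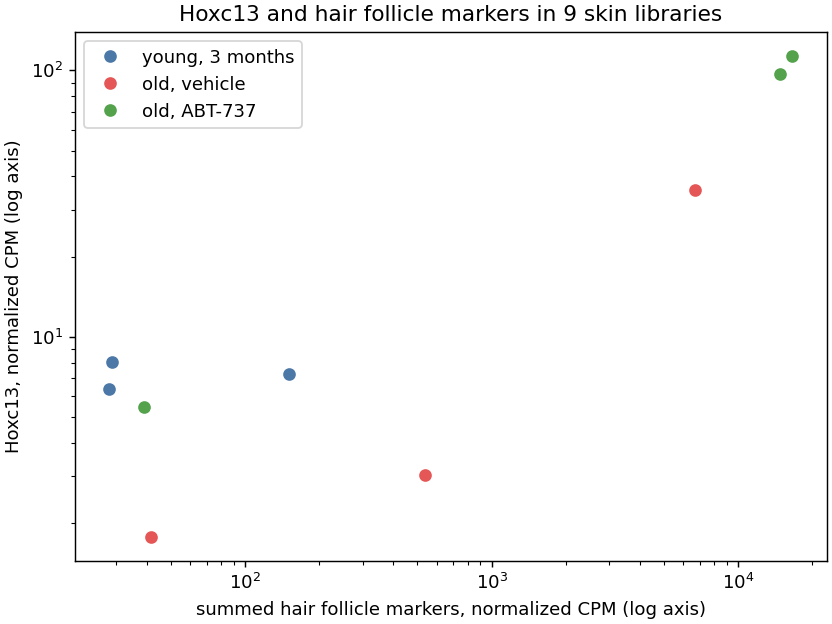
Hoxc13 (vertical axis) against the summed hair follicle markers (horizontal axis) in the 9 skin libraries, both as normalized CPM on log axes and coloured by group. The library of vehicle replicate 3 and those of ABT-737 replicates 4 and 5 lie far from the rest, which have at most 8.06 CPM of Hoxc13.

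In kidney 3 of the 10 retinoic acid genes tested were called between vehicle and young, where 13.3% of all genes were. Aldh1a1 and Aldh1a2, enzymes that make retinoic acid, rose by 2.08 (SE 0.327, adjusted p = 0.000515) and 2.22 (SE 0.315, adjusted p = 0.000216), and Cyp26b1 rose by 3.30 (SE 0.412, adjusted p = 6.88e-05), with 0 lower. Of 26 chromatin regulators tested in kidney, only Ezh1, a Polycomb methyltransferase, was called between vehicle and young (0.65, SE 0.129, adjusted p = 0.00322). In lung 0 of 26 and in skin 1 of 26 were called, under the 13.3% of all genes in kidney, 12.9% in lung and 11.2% in skin, the latter Mllt3 (-1.42, adjusted p = 0.0272). Of the cluster transcripts, Hotairm1 rose in kidney by 0.65 (adjusted p = 0.0464), Mtx2, a mitochondrial gene beside HoxD, fell there by 0.76 on the log2 scale (adjusted p = 0.0385) and Hoxd3os1 fell in skin by 2.86 on the log2 scale (adjusted p = 0.0258), where Hoxd3 itself was not tested.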

How the data were processed

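RNA of 39 libraries from 4 tissues was measured by a bulk derivation of MARS-seq. The authors deposited raw counts for each gene, whole numbers that were not normalized, in a table of RefSeq transcripts for kidney, liver and lung and a table of Ensembl transcripts for skin. The submitters' processing notes name bcl2fastq, HISAT 0.1.5, HOMER and the build mm10. Whether strand was used, or reads with the same molecule barcode were collapsed, is not given in the sources used here, so floors cover counting error only. Treatment labels reading ABT-738 or ABT-739 were taken as ABT-737, which titles and methods give.

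Each tissue was fitted on its own, and kidney, liver and lung together, with edgeR 4.0.16 in R 4.3.3 (expression filter, TMM, quasi-likelihood test, groups as the only term), and genes with an adjusted p under 0.05 were called. The method was tested on simulated counts for vehicle against young in kidney, lung and skin. Every simulated gene had the same spread, so that test does not show how the method does when the spread differs between genes. No level was compared between the tables, no 2 libraries had identical counts and depths are given with the results. Values were given for Hox genes called in a comparison, detected in exactly 1 of kidney, liver and lung, or detected nearest the 5′ end of a cluster in a tissue, and for genes of other lists only when called. Uncalled genes outside this rule that are named with values were added after their values were seen. Lists of cofactors, cluster neighbours, Cdx and ParaHox genes, chromatin regulators, retinoic acid genes, patterning factors and cell type markers were described by their counts of calls and their medians. The members, lists and tests were chosen with earlier results of these data known.

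Replicate numbers 3 to 5 are shared by vehicle and ABT-737, 3 and in part 4 also by young mice, and all recur across tissues. Whether same-numbered tissues came from the same mouse is not given in the sources used here, and the tissue contrasts treat libraries as independent. Deviations from group means correlated at 0.176 to 0.427 between same-numbered vehicle and ABT-737 libraries of lung (n = 3 pairs). Between differently numbered ones they correlated at -0.571 to 0.302, so the ranges overlapped. The same-numbered lung libraries were treated as paired in the alternative fit, although no source states a pairing. In the other tissues the lowest same-number correlation was -0.211 in kidney, -0.0353 in liver and -0.575 in skin, which gave no ground to take the numbers as pairs. The alternative fit with the number as a block was run in every tissue all the same, and between tissues with a block of group and number. Alternatives were DESeq2 1.42.0, its size factors, no low-count filter, only the compared groups, the replicate number as a block, single groups for the tissue contrasts, other detection rules and each library left out in turn. Some genes and sequences are counted in the totals but not reported here by name.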

Additional observations from a re-analysis of the deposited data

Results flagged for a closer look

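Among 39 sets of 4 young libraries, 1 per detected Hox gene in kidney and lung, 5 had a library far from the other 3, where chance marks about 1 in 20. The sets of a tissue come from the same 4 libraries and are not independent, so 5 of 39 cannot be tested against that rate. The gap to the nearest library, as a share of the whole range, was 0.85 for Hoxb3 in kidney (replicate 4 highest, 18.9 CPM), 0.832 for Hoxb7 in kidney (replicate 1 highest, 69.5 CPM), 0.848 for Hoxd9 and 0.881 for Hoxd10 in kidney (replicate 2 lowest for both, at 76.9 and 13.8 CPM) and 0.892 for Hoxb5 in lung (replicate 2 lowest, 31.3 CPM).

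The change of Hoxb5 between vehicle-treated and young mice differed between kidney and lung by 1.62 on the log2 scale (adjusted p = 0.0251 by edgeR). Hoxb3 had values of opposite sign in skin and lung without overlap of the groups in either, with 1.34 in skin and -0.94 in lung for vehicle against young, but was called in neither (adjusted p = 0.067 and 0.142 by edgeR). The tissues are in separate tables, and this difference was not tested.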

How the results depend on the processing

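The replicate number as a block left 0 Hox genes called between vehicle-treated and young mice in kidney, lung and skin and 0 between ABT-737-treated and young mice in skin, and gave 2 instead of 1 among the differences between tissues. With the block, all genes called, kidney, vehicle versus young came to 369 (1474 without), all genes called, lung, vehicle versus young to 333 (1539) and all genes called, skin, vehicle versus young to 0 (1592). Old mice have no replicate 1 or 2, so the block sets only young replicates 3 and 4, or 3 in skin, against them. Fewer calls against young mice thus follow in part from the lost libraries, and the block cannot show whether those calls depend on pairing. Between tissues the block, there of group and number, gave 25 calls for kidney against lung, 26 of 27 for kidney against liver and 13 for lung against liver. The block changed no other count of calls of Hox genes. That includes ABT-737 against vehicle in lung, where same-numbered libraries were treated as paired. DESeq2 called 4 (vehicle) and 5 (ABT-737) Hox genes against young in skin, and no low-count filter gave 1 for ABT-737 against young in kidney. Leaving out the 3 skin libraries high in hair follicle markers, chosen after the data were seen, left 0 for ABT-737 against young. Between lung and liver, the ABT-737 libraries alone gave 7 calls and the vehicle libraries alone 5, with fewer samples. Hoxb5 between kidney and lung turned to 0.19 in the vehicle libraries alone, and the cause was not tested. A single library above 3 counts gave 2 detected genes in liver and 17 in lung, at least 1 count in 5 libraries gave 4 and 17, and over 1 CPM in 5 libraries gave 4 in liver. With each library left out in turn, calls ranged from 2 to 3 in kidney and from 0 to 3 in lung and 0 to 4 in skin for vehicle against young, from 0 to 1 in kidney and 0 to 9 in skin for ABT-737 against young, and from 0 to 3 for differences between tissues. Of 2389 values for called Hox genes between tissues, 2328 kept direction and call, 60 lost the call and 1 turned. Hoxa11 was tested in only 22 of 30 fits with 1 library left out, for kidney against lung and against liver. The fits without Hoxa11 are not in these totals. Within tissues and for differences between them, 123 of 169 kept both and 46 lost the call. Low depth limits liver, where no Hox gene could be compared between groups.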

Other observations

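The summed level of 5 proliferation genes in lung was 22.8 to 36.9 CPM in young, 127 to 143 CPM in vehicle-treated and 51.6 to 233 CPM in ABT-737-treated mice, and 5 adipocyte genes in lung spanned 61.7 to 171 CPM in all libraries but ABT-737 replicate 4, at 4290 CPM. The 5 exocrine pancreas genes lay between 208 and 448 CPM in kidney. Beside the lists described above, Osr2, a kidney and limb factor, fell in kidney by 0.87 on the log2 scale for vehicle against young (adjusted p = 0.0237 by edgeR), 1 of 11 kidney patterning factors with 0 higher, and Hlx of the liver list fell in lung by 1.01 and rose in skin by 2.09 (adjusted p = 0.0426 and 0.0376).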
